A study of Homo sapiens with 4 samples.

Results

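The genes described here are those of the alpha-globin locus at the tip of the short arm of chromosome 16, namely HBZ, HBM, HBA2, HBA1, HBQ1 and the adjoining NPRL3, together with AHSP, the gene of the alpha-globin chaperone. They are 7 of the 64252 genes in the count table, and all 7 were found there by Ensembl identifier. They were selected on their counts in the dBET1 and DMSO libraries, with the difference between the groups already known, so that difference is described below without a test. The lists of other genes set beside them were also chosen with earlier results of these data known. Their calls, shares and p-values therefore describe these libraries and are no independent test. RNA was sequenced from cells labelled NB4, an acute promyelocytic leukemia line with the PML-RARa fusion. One group received 8 μM dBET1 for 24 h (2 libraries) and the other received DMSO, its solvent, for 24 h (2 libraries). dBET1 is a PROTAC that joins a ligand of the BET bromodomains to a ligand of cereblon, so that BET proteins are marked for degradation by the proteasome. All libraries come from 1 cell line, and nothing in the labels says whether the replicates were separate cultures, so the p-values measure only the spread between these libraries.

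Hemoglobin is a tetramer of alpha-like and beta-like globin chains, each holding a heme. The alpha-like genes are arranged along the chromosome in the order in which they are used in development: HBZ encodes the embryonic zeta chain, and HBA2 and HBA1 encode the same fetal and adult alpha chain. HBM and HBQ1 encode the mu and theta chains, for which no part in a hemoglobin is established. The distant enhancers that drive these genes in erythroid cells lie mostly within introns of NPRL3, a housekeeping gene whose own product is a subunit of GATOR1, a complex that restrains mTORC1 when amino acids are scarce. AHSP binds free alpha-globin and keeps it from precipitating until a beta-like chain is available, and it lies elsewhere on chromosome 16.

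The libraries held 28019956 to 34685645 counts, and the replicates of a group differed by more than counting error. The identity of the cells was checked with marker genes. Of 8 promyelocyte and neutrophil markers, ELANE and CTSG had 0 counts in all 4 libraries, and MPO had 0 and 0 counts with DMSO and 22 and 10 with dBET1. These 3 granule genes and PRTN3 and AZU1 together had 17 and 15 counts with DMSO and 55 and 25 with dBET1. CD33, a surface protein of myeloid cells, had 323 to 335 counts. The 10 erythroid markers, 3 of them beta-like globin genes, summed to 6943 and 7661 CPM (counts scaled to a common, TMM-normalized library size) with DMSO and to 4461 and 4458 CPM with dBET1. Most of that sum came from HBG2, TFRC, HBE1 and HBG1, and SLC4A1, the anion exchanger of the red cell membrane, went the other way, from 0.674 and 0.320 CPM to 2.27 and 2.65 CPM (edgeR adjusted p = 0.00229). The cells are named below as they were labelled, although the granule genes that define promyelocytes were at or near 0. The 5 megakaryocyte markers, of which PF4 and PPBP had 0 counts throughout, summed to 37.7 and 51.8 CPM with DMSO and to 15.1 and 23.1 CPM with dBET1. GP1BB made up most of this sum, while ITGA2B rose from 2.11 and 2.63 CPM to 4.06 and 4.55 CPM (edgeR adjusted p = 0.0209). The 3 monocyte markers summed to 0.640 to 0.827 CPM with DMSO and to 4.82 to 6.26 CPM with dBET1, and the 4 lymphocyte markers to 1.87 to 2.46 CPM in all libraries. The part of these shifts in the results below was not tested, and in bulk RNA fewer cells of a type cannot be told apart from less RNA per cell.

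The adult pair HBA1 and HBA2 and the embryonic HBZ were the abundant genes of the cluster, and all of them were lower after dBET1. HBQ1 was lower as well from a much smaller level, NPRL3 was slightly lower, and HBM and AHSP stayed near the limit of detection in every library. In 7 of 7 genes the libraries of the groups did not overlap, as was also so for 79.3% of the 17971 tested genes. Of the 7, 6 were lower after dBET1 without overlap, as were 37.4% of tested genes. AHSP is among these 6 but did not pass the count filter. The 7 were chosen with this contrast known, so the shares are no test of them. Of all tested genes, 55.6% were called with edgeR's quasi-likelihood test (Benjamini-Hochberg adjusted p below 0.05), 28.0% higher and 27.6% lower. With an absolute log2 fold change above 1 as well, 16.9% were higher and 8.54% lower.

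**Figure D1:**
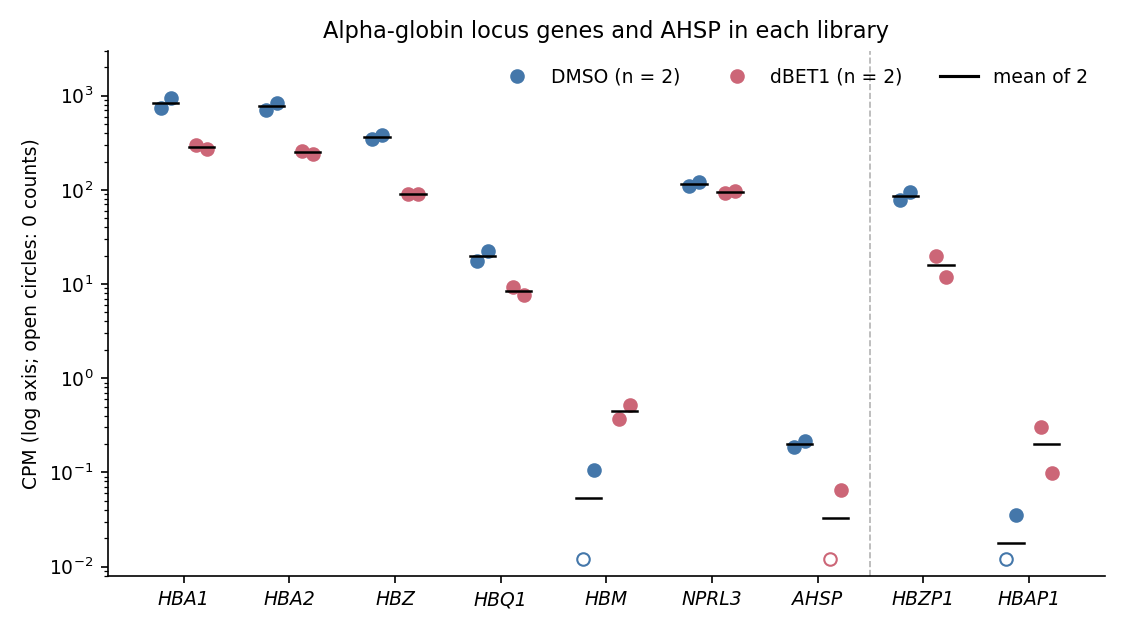
CPM (log axis) of each library for the 7 genes and, right of the dashed line, the pseudogenes HBZP1 and HBAP1. Each circle is 1 library (DMSO and dBET1, n = 2 each), open circles mark 0 counts and black bars the mean of 2. HBA1, HBA2, HBZ and HBQ1 sit lower with dBET1, NPRL3 differs little, and HBM and AHSP lie under 1 CPM throughout.

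HBA2 (ENSG00000188536) lies at 172876 to 173710 of chromosome 16 in hg38 on the forward strand, in 3 exons, and encodes alpha-globin. It had 22945 and 23407 counts with DMSO and 7776 and 7334 with dBET1, which is 703 and 833 against 259 and 240 CPM. Both DMSO libraries were high and both dBET1 libraries low, with no overlap. The mean was 768 ± 91.8 CPM and 250 ± 13.3 CPM (SD, n = 2 per group). The log2 fold change was -1.62 with a standard error of 0.0969. HBA2 went from rank 159 to rank 501 among all genes by mean CPM.

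HBA1 (ENSG00000206172), which encodes the same protein, lies 3804 bp further along at 176680 to 177522. It had 23846 and 26260 counts with DMSO and 9048 and 8281 with dBET1. In CPM it went from 833 ± 144 to 286 ± 21.4 (SD, n = 2 per group), with a log2 fold change of -1.54 and a standard error of 0.121. The DMSO libraries spread more than the dBET1 libraries, but the groups did not overlap.

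The split between HBA1 and HBA2 depends on how reads were placed, since the copies are nearly the same. Of the 427 windows of 150 bases (the read length) along the HBA2 transcript, 77.5% occur unchanged in the HBA1 transcript, and the longest run the transcripts share is 480 bases. The sum of the pair does not depend on how reads were divided between them. It was 1434 and 1767 CPM with DMSO and 561 and 512 CPM with dBET1, a log2 ratio of -1.58, or 2.99-fold lower. HBA1 held 51.0% and 52.9% of the pair's counts with DMSO and 53.8% and 53.0% with dBET1, so the listed split moved by little beside the sum.

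HBZ (ENSG00000130656, forward strand, 142728 to 154503) encodes zeta-globin, the first alpha-like chain of the embryo. Its reference transcript covers only 152644 to 154503, and a longer transcript accounts for the rest. It had 11403 and 10777 counts with DMSO and 2733 and 2741 with dBET1. Its level went from 366 ± 24.1 to 90.4 ± 0.899 CPM (SD, n = 2 per group), with a log2 fold change of -2.02 and a standard error of 0.0793. HBZ thus kept 24.7% of its DMSO level, HBA2 32.5% and HBA1 34.4%. Among the 17971 tested genes the log2 fold change of HBZ ranked 199 from the lowest, that of HBA2 426 and that of HBA1 526.

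HBZP1, the zeta pseudogene at 163122 to 165156, lies after HBZ and before the reference transcript of HBM, which covers 165978 to 166764 of the longer HBM gene, and it was lower as well. It had 2540 and 2653 counts with DMSO and 596 and 360 with dBET1, with a log2 fold change of -2.44 and a standard error of 0.222 (edgeR adjusted p = 8.22e-05). This is not separate from HBZ: 74.3% of the 150-base windows of HBZP1 occur unchanged in HBZ, over a shared run of 357 bases, while 32.0% of the windows of HBZ occur in HBZP1. As a choice made after the values were seen, the counts of HBZ and HBZP1 were summed, which gave 427 and 478 CPM with DMSO and 111 and 102 CPM with dBET1, a log2 ratio of -2.09.

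HBQ1 (ENSG00000086506, 180459 to 181179), the theta-globin gene at the far end of the cluster, was present at a low level. It had 572 and 627 counts with DMSO and 279 and 236 with dBET1. Its mean was 19.9 ± 3.38 CPM with DMSO and 8.51 ± 1.11 CPM with dBET1 (SD, n = 2 per group), and its log2 fold change was -1.23 with a standard error of 0.178. No 150-base window of HBQ1 occurs in another globin gene or pseudogene of the cluster.

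HBM (ENSG00000206177, 153892 to 166764) encodes mu-globin. It was the only gene of the 7 with more counts after dBET1, and it had hardly any in either group: 0 and 3 counts with DMSO and 11 and 16 with dBET1. It passed the count filter through the dBET1 libraries alone. Summed over each group, 3 counts stood against 27. This difference was not tested, since HBM was chosen with it known. With dBET1 the summed counts correspond to 0.446 CPM (exact 95% Poisson interval 0.294 to 0.649, for counting error only). The interval takes each count as 1 read. Of the 912 exon bases in the HBM models, 205 also belong to an exon of HBZ and 205 to exons of HBZP1 on the same strand, and a count per gene does not place its reads along the gene.

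AHSP (ENSG00000169877, 31527900 to 31528803), the chaperone gene, was near the limit of detection while alpha-globin transcripts were abundant. It had 6 and 6 counts with DMSO and 0 and 2 with dBET1, and it did not pass the count filter. Summed over each group, 12 counts stood against 2, which was not tested either. The DMSO level was 0.198 CPM (exact 95% Poisson interval 0.102 to 0.345, for counting error only), against 768 CPM for HBA2.

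NPRL3 (ENSG00000103148, reverse strand, 84271 to 138677), which hosts the enhancers, differed least. It had 3573 and 3408 counts with DMSO and 2806 and 2943 with dBET1, or 109 and 121 CPM against 93.5 and 96.4 CPM. Its log2 fold change was -0.28 with a standard error of 0.0841, and when libraries were scaled by total counts alone it was -0.07. Its start lies at -34.2 kb from that of HBA2, on the opposite strand.

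The promoters of HBM, which had more counts after dBET1, and of NPRL3, which differed least, are shown for comparison. They are the 250 bases before each start in RefSeq (GRCh38.p14), 5′ to 3′ on the strand of the gene, which is forward for HBM at chr16:165728-165977 and reverse for NPRL3 at chr16:138674-138923. RefSeq entries were matched for 2 of the 7 genes, the others being HBZ, HBA2, HBA1, HBQ1 and AHSP. Capitals mark any of 6 motifs searched on both strands, none overlapping here: AGATAA and also TGATAA for GATA factors, the CACCC box for Kruppel-like factors, the CCAAT box, and TATAA or else CATAA for the TATA box.
HBM: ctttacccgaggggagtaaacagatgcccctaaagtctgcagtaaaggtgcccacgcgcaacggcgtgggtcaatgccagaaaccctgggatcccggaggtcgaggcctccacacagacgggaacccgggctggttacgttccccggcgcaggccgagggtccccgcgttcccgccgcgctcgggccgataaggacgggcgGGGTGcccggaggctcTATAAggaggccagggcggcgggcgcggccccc
NPRL3: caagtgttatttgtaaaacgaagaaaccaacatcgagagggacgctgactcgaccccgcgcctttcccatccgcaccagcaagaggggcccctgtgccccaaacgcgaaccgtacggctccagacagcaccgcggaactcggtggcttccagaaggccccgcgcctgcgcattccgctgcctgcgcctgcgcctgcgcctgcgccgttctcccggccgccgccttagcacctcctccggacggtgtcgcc
HBM held 1 CACCC match, on the reverse strand from base -49, and 1 TATAA match from base -33, counted back from the start at -1. NPRL3 held 0 matches to any of the 6 motifs. Of 35116 RefSeq promoters of the same length, 54.7% held CACCC, 18.9% TATAA, 9.17% AGATAA, 6.66% TGATAA, 32.0% CCAAT and 21.7% CATAA. Both promoters were rich in CG dinucleotides, with 27 in HBM and 29 in NPRL3 against a median of 11. These matches describe letters only.

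Levels of different genes were compared per length, as CPM per kb of the reference transcript. With DMSO the order was HBA1 (1443 ± 250), HBA2 (1333 ± 159), HBZ (459 ± 30.2), HBQ1 (37.7 ± 6.40), NPRL3 (36.9 ± 2.66), AHSP (0.407 ± 0.0429) and HBM (0.106 ± 0.150) in CPM per kb (SD, n = 2). HBA1 held more of the pair's counts than HBA2 in every library (51.0% and 52.9% with DMSO, 53.8% and 53.0% with dBET1). That split depends on how reads were placed. The DMSO means of HBQ1 and NPRL3 differed by less than the SD of either. With dBET1 the levels in CPM per kb were 496 ± 37.0 for HBA1, 433 ± 23.1 for HBA2, 113 ± 1.13 for HBZ, 30.4 ± 0.658 for NPRL3, 16.1 ± 2.1 for HBQ1, 0.887 ± 0.222 for HBM and 0.0671 ± 0.0949 for AHSP. NPRL3 thus stood above HBQ1 and HBM above AHSP with dBET1, while the first 3 places kept their order. The places of HBM and AHSP rest on few counts. Summed over each group, HBM had 3 with DMSO and 27 with dBET1, and AHSP had 12 and 2.

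The make-up of the alpha-like transcripts shifted a little towards the adult pair. Per length, HBZ made up 14.8% and 13.4% of the sum of HBZ, HBM, HBA1, HBA2 and HBQ1 with DMSO and 10.3% and 11.1% with dBET1. HBA1 and HBA2 made up 84.1% and 85.4% with DMSO and 88.0% and 87.4% with dBET1, and HBQ1 went from 1.12% and 1.18% to 1.59% and 1.44%. The groups overlapped in none of these shares. With 2 libraries a group an exact permutation test cannot go below p = 0.333, so no test was made. HBZP1 was left out of the sum, so the HBZ share depends on how reads were divided between HBZ and HBZP1. HBZ held 81.8% and 80.2% of their joint counts with DMSO and 82.1% and 88.4% with dBET1.

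The abundant beta-like globin genes, the partners of the alpha-like genes, differed by less. HBG1, HBG2, HBE1 and HBD fell (edgeR adjusted p from 0.000708 to 0.00259), 4 of the 4 tested where 27.6% of all tested genes fell, with log2 fold changes of -0.67, -0.65, -0.72 and -2.02, and HBB had 6 and 0 counts with DMSO and 10 and 0 with dBET1. The alpha-like sum per length went from 3273 ± 446 to 1060 ± 63.1 CPM per kb and the beta-like sum from 7515 ± 1101 to 4742 ± 43.6 CPM per kb (SD, n = 2 per group). The ratio of alpha-like to beta-like transcripts was therefore 0.439 and 0.433 with DMSO and 0.231 and 0.216 with dBET1. As a ratio within each library it does not depend on how libraries were scaled, and the groups were far apart relative to the spread of their replicates.

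**Figure D2:**
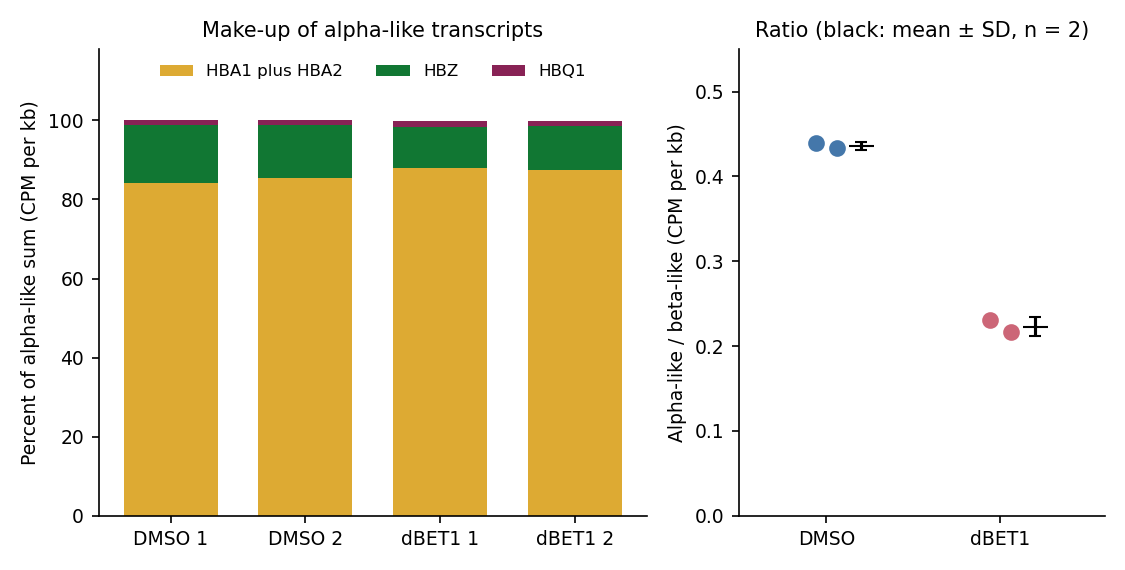
Left, share of HBA1 plus HBA2, HBZ and HBQ1 in the alpha-like sum of each library (CPM per kb, percent; HBM, at most 0.103%, is not drawn). Right, ratio of the alpha-like to the beta-like sum in each library (circles) with mean ± SD (black, n = 2 in each group): 0.436 with DMSO and 0.223 with dBET1.

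The lower level of the globin genes was set beside the genes around them. Within 500 kb of the chromosome end, 43 genes are annotated, 39 of them are in the count table and 33 of these are not among the 7. Of the 21 neighbours that passed the count filter, 7 rose, 6 fell and 8 were not called by edgeR. The 7 include RGS11 and ENSG00000228779, which passed the filter through the dBET1 libraries alone, and 5 rose with at least 10 counts in every sample. HBZP1 is 1 of the 6 that fell. Called genes made up 61.9% of the neighbours, these 3 included, and 55.6% of all tested genes. With an absolute log2 fold change above 1 as well, 5 of the 21 rose and 5 fell, the same 3 included, against 16.9% and 8.54% of all tested genes. The median log2 fold change of the neighbours was 0.18, against 0.048 over all tested genes, but it was 0.32 without DMSO replicate 1, 0.10 without DMSO replicate 2 and 0.05 without dBET1 replicate 2.

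Changes of both signs lay next to each other along the locus. Before the globin genes, towards the telomere, POLR3K, a subunit of RNA polymerase III, fell from 80.7 and 85.8 CPM to 26.5 and 24.9 CPM (log2 fold change -1.69, standard error 0.0924), and SNRNP25, a protein of the minor spliceosome, fell by 1.59 on the log2 scale (standard error 0.116). The next gene, RHBDF1, an inactive rhomboid protein, rose from 102 and 89 to 210 and 269 counts (log2 fold change 1.33, standard error 0.219). MPG, a DNA glycosylase whose gene overlaps the end of NPRL3 on the other strand, had 50.1 and 53.5 CPM with DMSO and 48.7 and 51.2 CPM with dBET1, so its groups overlapped (log2 fold change -0.05, standard error 0.0898).

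On the other side of the cluster, LUC7L, a U1 snRNP-associated splicing factor 56.6 kb from HBA2, had 72.5 and 84.5 CPM with DMSO and 82.3 and 91.5 CPM with dBET1. Its groups overlapped, and it was not called by edgeR (log2 fold change 0.15, adjusted p = 0.256). It was called without DMSO replicate 2 (0.23, edgeR adjusted p = 0.0379) and with total counts only (0.36, edgeR adjusted p = 0.0170). FAM234A, 61.9 kb away, rose from 49.5 and 51.6 CPM to 126 and 133 CPM (log2 fold change 1.36, standard error 0.0824), the opposite of the globin genes. Further out MRPL28, a protein of the mitochondrial ribosome, fell by 1.19 on the log2 scale, RAB11FIP3, a Rab11 effector, rose by 1.08, and NME4, a mitochondrial nucleoside diphosphate kinase, fell by 1.95. NME4 lies 224 kb from HBA2 and is known as a distant gene that the alpha-globin enhancers also contact in human erythroid cells. It went from 6108 and 5790 counts to 1558 and 1525 counts, with a standard error of 0.0850 and no overlap.

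A pair of tested neighbours had counts with dBET1 alone. Over all genes in the count table, 25274 and 24589 had a count with DMSO and 28356 and 28353 with dBET1. More genes were thus detected in the dBET1 libraries, so counts with dBET1 alone were not particular to these neighbours. RGS11, an inhibitor of G protein signalling, had 0 and 0 counts with DMSO and 15 and 12 with dBET1, at least 4.49-fold higher against a floor of 3 counts per library. ENSG00000228779, a long non-coding RNA within NPRL3 on the other strand, was listed at 0 counts in both DMSO libraries and had 10 and 18 with dBET1, or at least 4.64-fold more against the same floor. Both passed the count filter through the dBET1 libraries alone, and without a stated strand setting reads of this RNA cannot be told apart from those of NPRL3 introns. Other named genes within 100 kb that did not pass the filter were HBAP1, the alpha pseudogene (0 and 1 counts with DMSO, 9 and 3 with dBET1), ENSG00000268836 (15 and 8, then 0 and 6), C4orf46P1 (2 and 0, then 3 and 8), ENSG00000278995 (0 and 1, then 2 and 1), ENSG00000269482 (1 count in every library) and a Y RNA gene (2 and 2, then 0 and 2).

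**Figure D3:**
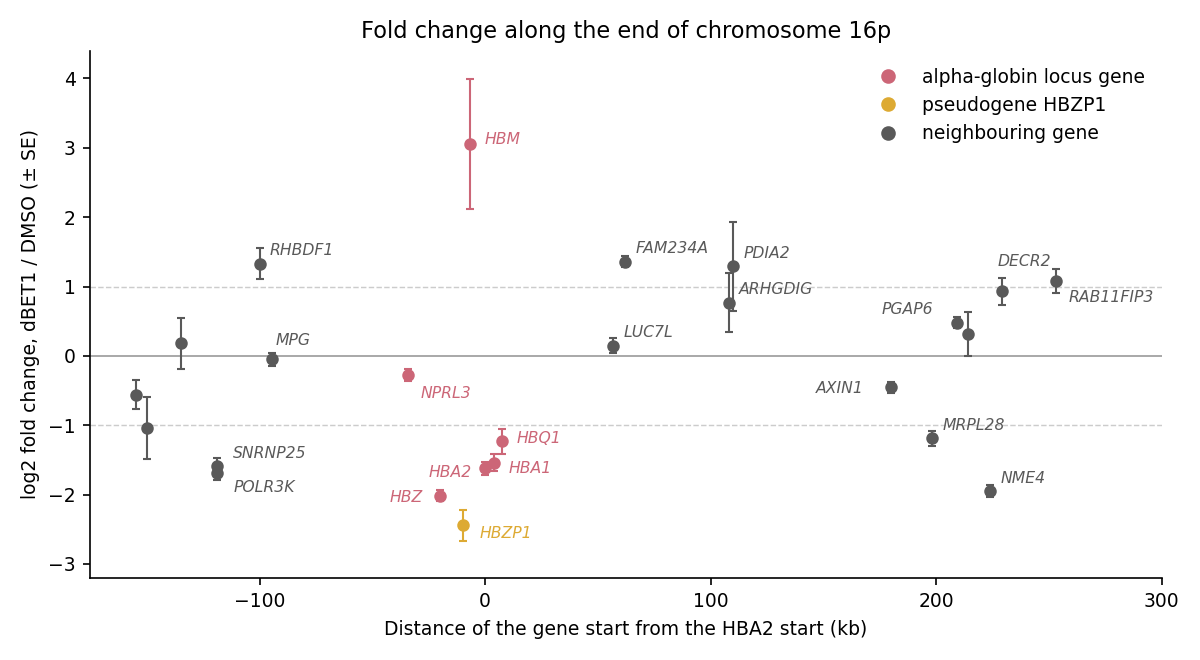
log2 fold change of dBET1 over DMSO (± standard error) against the distance of each gene's start from the HBA2 start in kb, for tested genes at the end of chromosome 16p. RGS11 and ENSG00000228779, with 0 counts in both DMSO libraries, and the distant AHSP are not drawn. HBZ, HBA2, HBA1 and HBQ1 lie from -2.02 to -1.23, while FAM234A (1.36) and RHBDF1 (1.33) lie above 0 on either side. The highest point is HBM (3.06, standard error 0.938), which rests on 0 and 3 counts with DMSO and 11 and 16 with dBET1. It passed the count filter through the dBET1 libraries alone.

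Globin genes are switched on by erythroid transcription factors, with GATA1, TAL1, LMO2 and LDB1 acting as a complex and KLF1 and NFE2 binding beside it, and ATRX is known to sustain alpha-globin expression in particular. A list of 24 globin regulators held such activators and also repressors, among them BACH1 and BCL11A. Of the 24, 23 passed the count filter, and 17 fell, 1 rose and 5 did not pass the test. These counts do not separate activators from repressors. Their median log2 fold change was -0.63, and 73.9% fell against 27.6% of all tested genes. When libraries were scaled by total counts alone, 15 fell and 4 rose. Of the regulators, 6 fell by more than 1 on the log2 scale, as did 8.54% of all tested genes.

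LMO2, the bridging protein of the complex, fell most among the regulators, from 46.9 and 48.6 CPM to 10.6 and 8.12 CPM (log2 fold change -2.35, standard error 0.144). KLF1, the activator that binds CACCC sites, fell from 210 and 251 CPM to 52.1 and 48.7 CPM (log2 fold change -2.19, standard error 0.105). MYB, a factor of progenitor growth, had a log2 fold change of -1.85, NFIA of -1.29, TCF3, an E protein that pairs with TAL1, of -1.26 and LDB1, which joins distant enhancers to promoters, of -1.08. Each was called by edgeR (adjusted p from 8.74e-06 to 0.000513), and the libraries of the groups did not overlap.

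The other factors are named after their values were seen. GATA1 had a log2 fold change of -0.50 (standard error 0.0851, edgeR adjusted p = 0.00185) and NFE2 of -0.94. TAL1 had 117 and 113 CPM with DMSO and 125 and 136 CPM with dBET1 and was not called, although its groups did not overlap (log2 fold change 0.18, edgeR adjusted p = 0.0876). ATRX had a log2 fold change of 0.35 with an edgeR adjusted p of 0.0521, and its partner DAXX fell by 0.93 on the log2 scale. The gene that rose was BACH1, a repressor at globin enhancers when heme is low, with a log2 fold change of 0.66. BCL11A, the repressor of fetal globin, had 0 counts in all 4 libraries.

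**Figure D4:**
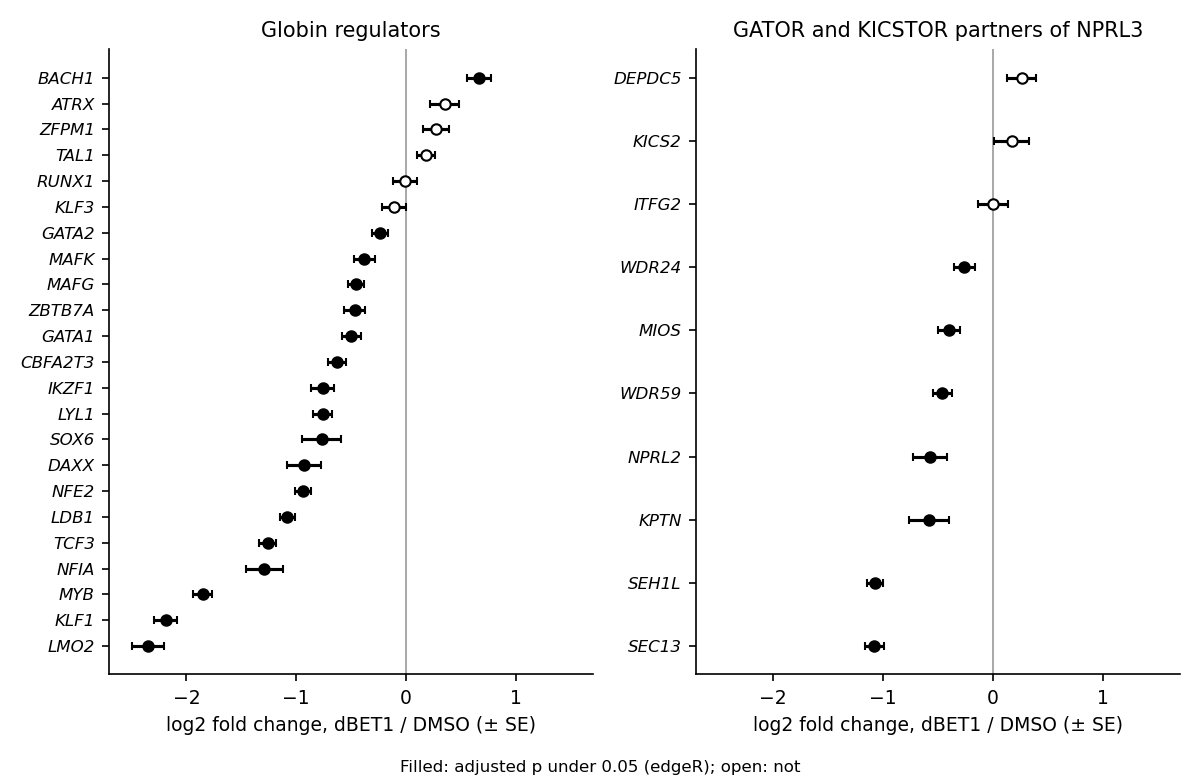
log2 fold change of dBET1 over DMSO (± standard error) for the 23 tested globin regulators (left) and 10 partners of NPRL3 (right). Filled circles were called by edgeR (adjusted p below 0.05) and open circles were not. LMO2 (-2.35) and KLF1 (-2.19) lie lowest on the left, and SEC13 (-1.08) and SEH1L (-1.07) on the right.

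NPRL3 works with NPRL2 and DEPDC5 in GATOR1, which GATOR2 inhibits and KICSTOR holds at the lysosome. Of 10 genes of these complexes examined, all tested, 7 fell and 3 did not pass the test, with a median log2 fold change of -0.43. The 7 are 70.0% of the list, against 27.6% of all tested genes that fell. NPRL2 fell by 0.57 on the log2 scale (standard error 0.155), and DEPDC5 did not pass (log2 fold change 0.26, edgeR adjusted p = 0.130). Within GATOR2, SEH1L and SEC13, which also belong to the nuclear pore, had log2 fold changes of -1.07 and -1.08. The number that fell was 3 without dBET1 replicate 1, and 3 fell and 1 rose when libraries were scaled by total counts alone.

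Free alpha-globin is also handled without AHSP, by the ubiquitin ligase UBE2O and by autophagy through ULK1. Of 5 genes of this handling and of globin translation, 3 rose, 1 fell and 1 did not pass, where 28.0% of all tested genes rose and 27.6% fell. ULK1 rose from 28.2 and 32.5 CPM to 74.8 and 86.9 CPM (log2 fold change 1.42, standard error 0.114), and PRDX2, an abundant red cell peroxidase, fell by 1.24 on the log2 scale (standard error 0.0846). UBE2O and EIF2AK1, the heme-regulated kinase that restrains globin translation, had log2 fold changes of 0.26 and 0.21 and edgeR adjusted p of 0.0442 and 0.0393. With DESeq2, with no count filter, with the replicate number as a block and without dBET1 replicate 1 or dBET1 replicate 2, ULK1 was the 1 that rose. HSPA8, a chaperone, was not called (log2 fold change 0.04, edgeR adjusted p = 0.579).

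Genes with a pattern like that of the globin genes were found by the distance between centred log2 CPM values over the 4 libraries, among 17971 genes. Nearest to HBA2 were CD320, SNRPG, EIF5A, DCTPP1 and NTMT1, at distances of 0.0322 to 0.0501 on the log2 scale, and nearest to HBZ were RRP9, HNRNPA3P6, PODXL2, GCSH and NME4, at 0.0527 to 0.0750. The log2 fold changes of the first 5 ran from -1.66 to -1.59 and those of the others from -2.04 to -1.95. NME4, the neighbour described above, was thus among the 5 nearest to HBZ. The 4 libraries form 2 groups, so genes with a fold change of the same size come out as near.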

How the data were processed

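Transcripts were counted in 4 libraries from cells labelled NB4, 2 with 8 μM dBET1 and 2 with DMSO, after 24 h. The authors aligned 150 bp paired-end reads to hg38 with HISAT2 2.2.0, estimated abundances with StringTie and deposited whole-number counts per Ensembl gene without normalization. The step from abundances to counts and its read-length and strand settings are not given in the sources used here. The genes described and the lists were chosen with earlier results of these data known. Counts were analysed with edgeR 4.0.16 in R 4.3.3 (filterByExpr, TMM factors of 0.918 to 1.08, quasi-likelihood test with the group as the single term). The p-values were adjusted by Benjamini-Hochberg across 17971 genes, and a standard error was the log2 fold change divided by the square root of F. Gene models came from GENCODE 44, which held 56105 of the 64252 identifiers. Exact intervals were Poisson at 95% and cover counting error only. They take each count as 1 read, which is not known here because the step to counts is not given, so they may be too narrow. On 3 simulated data sets of 17437 to 17465 genes, 95% of genes changed by 1 on the log2 scale were called. Only 200 genes were changed in each, none with few counts, in both directions and with a common dispersion. In the data 55.6% of genes were called, so this share does not carry over to them or to genes with few counts. The alternatives were DESeq2 1.42.0, other scalings and count filters, a replicate block, counts divided by 2 and each library left out. Genes named were the 7, the pseudogenes HBZP1 and HBAP1, members of the lists called with an absolute log2 fold change above 1, neighbours within 100 kb of HBA2 and the 5 nearest patterns to HBA2 and HBZ. Any other gene named from the lists or the cell markers falls outside this rule and is to be taken as named after its values were seen. A gene listed for the complexes of NPRL3 is not reported here and was left out of their counts.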

Additional observations from a re-analysis of the deposited data

How the results depend on the processing

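HBZ, HBA1, HBA2, HBQ1 and NPRL3 were lower than in DMSO under every alternative run, with log2 fold changes, when each library in turn was left out, of -2.11 to -1.98 for HBZ, -1.77 to -1.52 for HBA2, -1.73 to -1.38 for HBA1, -1.42 to -1.07 for HBQ1 and -0.38 to -0.24 for NPRL3. They were smaller with total counts only: -1.81 for HBZ, -1.41 for HBA2, -1.33 for HBA1, -1.01 for HBQ1 and -0.07 for NPRL3. HBM, with few counts, ran from 1.99 without DMSO replicate 1 to 6.79 without DMSO replicate 2, and it gave no value without dBET1 replicate 2, with at least 10 counts in every sample or with counts divided by 2. The change of the alpha-like to beta-like ratio ran from -1.02 to -0.91 on the log2 scale and that of the HBZ share from -4.10 to -2.69 percentage points. With total counts only, the median log2 fold change over all tested genes was 0.257 instead of 0.048, 6703 genes were higher and 3573 lower against 5038 and 4953, genes lower with an absolute log2 fold change above 1 fell to 952 from 1535 (3852 against 3032 higher), 4 regulators and 1 NPRL3 partner were higher, and 3 partners were lower. Genes higher with an absolute log2 fold change above 1 numbered 1940 with at least 10 counts in every sample, where 4 regulators were higher. Regulators higher were 3 with counts divided by 2 and, with the replicate number as a block, 2. Partners of NPRL3 lower were 4 with no count filter. Genes handling free alpha-globin that rose, an alternative added after the values were seen, were 1 with DESeq2, with its size factors in edgeR, with no count filter and with the replicate block. When each library in turn was left out, genes higher numbered 3356 (without dBET1 replicate 2) to 5118, regulators higher 1 to 2, partners lower 3 to 7 and genes handling free alpha-globin that rose 1 to 2. The differences between replicates 1 and 2 correlated at 0.0424 between the groups over 11027 genes, so the numbers were not taken to pair the samples, and the cause of none of these shifts was tested.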
